A study of Mus musculus with 9 samples.

Results

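The set described here holds 10 genes, *Pax6*, *Meis1*, *Meis2*, *Mitf*, *Ezr*, *Rab22a*, *Ankrd13a*, *Ephb2*, *Efnb3* and *Creb5*, out of 37725 genes in the single-cell expression matrix. They were chosen by name as reported targets and partners of miR-204 and miR-211, and all 10 were found in the matrix. The set does not separate targets from partners. The authors describe PAX6, MEIS2 and MITF only as factors with which these miRs interact. Raw unique molecular identifiers (UMIs, which count captured mRNA molecules) were summed for each mouse over the cells of each retinal cell type. The 10 genes were then followed across cell types with high or low expression of the microRNA (miR) host genes *Trpm1* and *Trpm3*, and between control and double KO (dKO) mice.

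The study sequenced dissociated retinas of 4 control mice (S01 to S04) and 5 dKO mice (S05 to S09), 31089 cells in all. By the paper this was 6 months after induction, that is, after the injections described below. By the labels, every mouse of both groups carried RPE65-ERT2-Cre together with floxed miR-211 and floxed miR-204 alleles, written RPE65-ERT2-Cre.miR-211fl.miR-204fl. Injections into the peritoneum began at postnatal day 28 and went on for 5 days: corn oil alone in controls, tamoxifen at 75 mg/kg in corn oil in dKO mice. By these labels, tamoxifen itself and the deletion cannot be told apart in this comparison. The paper instead describes its controls as Cre-negative mice given tamoxifen, and the labels were followed here. By retinal imaging, the paper reports that such mice did not differ from Cre-positive mice given vehicle. It also reports no phenotype in mice with Cre alone after tamoxifen. The driver acts in the retinal pigment epithelium (RPE), the pigmented cell layer beneath the photoreceptors. By the labels, the retina was peeled from the eye cup before dissociation. miR-204 and miR-211 were not analysed here, so their loss was not checked in these mice, and the host genes measure no deletion because the floxed segments are small parts of their introns.

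A miR guides a silencing complex to mRNAs whose 3′-untranslated region (3′-UTR) pairs with the seed, the bases near the miR's 5′ end, and the bound mRNA is repressed or degraded. miR-204 lies in an intron of *Trpm3* and miR-211 in an intron of *Trpm1*, which encode cation channels. PAX6, the MEIS proteins and MITF are transcription factors of eye development and pigment cells, ezrin builds the apical microvilli of the RPE, and RAB22A and ANKRD13A act in endosomal traffic. EPHB2 is a receptor tyrosine kinase, ephrin-B3 is one of its membrane-bound ligands, and CREB5 is a transcription factor of the CREB and ATF family.

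The mature miRs, from the RefSeq table for GRCm38.p6, are shown with their seed (bases 2 to 8) in capitals, because this shared seed defines which 3′-UTR sites both can pair with.
mmu-miR-204-5p: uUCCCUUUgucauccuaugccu
mmu-miR-211-5p: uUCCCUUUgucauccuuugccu
Both are 22 bases long and differ at 1 base, A17U, counted from the 5′ end of miR-204-5p. Perfect matches to the seed were searched on the transcribed strand of the annotated 3′-UTRs (GENCODE M39, GRCm39). The letters searched were AAAGGGA (a match to bases 2 to 8, called 7mer-m8) and AAAGGGAA (the same followed by A, called 8mer). The genes had 11 such sites, 5 of them 8mers, all in 3′-UTR exons of protein-coding genes.

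The sites are shown with the match in capitals and 8 flanking bases on each side, since they are where each gene could pair with either miR. Coordinates are those of the capitals.
Meis1, chr11:18833400-18833406, minus strand: caatggaaAAAGGGAgaatacaa
Meis2, chr2:115891751-115891757, minus strand: cgaattggAAAGGGAgataaata
Ezr, chr17:7006063-7006070, minus strand: gttttaaaAAAGGGAAagttttgt
Rab22a, chr2:173543102-173543108, plus strand: tggcgtgcAAAGGGAccatgcat
Ankrd13a, chr5:114943386-114943392, plus strand: gaaacaagAAAGGGAgctaactt
Ankrd13a, chr5:114943422-114943429, plus strand: ttcatccaAAAGGGAAaaatgatg
Efnb3, chr11:69444975-69444982, minus strand: ttattgtaAAAGGGAAatttgaac
Creb5, chr6:53671253-53671259, plus strand: ataagaaaAAAGGGAgatatgca
Creb5, chr6:53672005-53672011, plus strand: cactagggAAAGGGActtcgtaa
Creb5, chr6:53673039-53673046, plus strand: aaaaatgaAAAGGGAAgaaagaag
Creb5, chr6:53675362-53675369, plus strand: cagaagcaAAAGGGAAgcaccttc
*Creb5* held 4 sites and *Ankrd13a* held 2, while *Meis1*, *Meis2*, *Ezr*, *Rab22a* and *Efnb3* held 1 each.

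No such letters stood in the annotated 3′-UTRs of *Pax6*, *Mitf* or *Ephb2*. In all, 7 of the 10 genes had a site in some annotated 3′-UTR, against 21.3% of 20955 genes. The *Meis2* site was in 1 of 12 transcripts with a 3′-UTR, the *Meis1* site in 3 of 10, the *Rab22a* site in 4 of 7 and the *Ezr* site in 6 of 7, whereas the sites of *Ankrd13a*, *Efnb3* and *Creb5* were in every such transcript. Restricted to the longest 3′-UTR of each gene, 5 of the 10 genes kept a site, against 18.6% of genes. With the shorter match AAGGGAA (7mer-A1) admitted as well, 9 of the 10 had a site, against 31% of genes. The longest 3′-UTRs of the 10 ranged from 1571 to 7783 bases, against a median of 1468 over all genes. Because the genes were chosen as reported targets and partners of these miRs, the shares with a site describe the set and test nothing.

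Cells were assigned to 16 types by how many genes of a marker list had at least 1 UMI, and 25066 of the 31089 cells were assigned. They comprised 14796 rods, 2103 cones, 2071 Müller glia, 873 rod bipolar, 1082 ON cone bipolar and 742 OFF cone bipolar cells, 1259 GABAergic, 533 glycinergic and 95 starburst amacrine cells, 300 ganglion cells, 203 horizontal cells, 299 RPE cells, 80 microglia, 157 pericytes, 148 endothelial cells and 325 fibroblast-like cells. A mouse entered a comparison with at least 10 cells of the type, which for RPE left 3 control mice (S01, S02, S03) and 4 dKO mice (S06 to S09) with 36472 to 1406019 UMIs each. S04 held 0 RPE cells and S05 held 3. Levels are given as CPM, the gene's UMIs per 1000000 UMIs of that type in that mouse. A lower CPM in summed cells can mean fewer cells that express the gene or less of it per cell, and CPM alone does not tell these apart.

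RPE cells were chosen by at least 4 of 7 RPE markers and a limit on rod markers, so the shares of those lists describe the cells and test nothing. The RPE marker list took 0.843 to 1.31% of RPE UMIs in control mice and 0.707 to 1.26% in dKO mice, with *Rpe65* the most abundant, whereas the listed marker *Best1* had 1 UMI in S08 and none in any other mouse. Rod markers took 0.0284 to 0.0400% in controls and 0.0297 to 0.132% in dKO mice, with the highest share in S07. With RPE cells high in rod markers left out, none of the genes was called between dKO and control mice either. The OFF cone bipolar list, most of it *Grik1*, took 0.00846 to 0.0366% in controls and 0.0110 to 0.230% in dKO mice, with the highest share in S09. The Müller list, most of it *Clu* and *Glul*, took 0.213 to 0.242% in controls and 0.222 to 0.300% in dKO mice. The melanocyte markers *Sox10*, *Mlana* and *Pax3* together took 0.00526 to 0.00705% in controls and 0.00345 to 0.00778% in dKO mice, *Pax3* being at 0 in every mouse but S01, where it had 1 UMI. The part of these last 3 lists in the results was not tested.

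Total UMIs ranged from 15079143 to 66528160 per mouse. S04 (control), S05 and S07 (both dKO) stood apart from the other 6 mice. They had 66.4 to 81.4% rods among their cells against 30.1 to 43.0%, and 4775 to 5412.5 UMIs in the median cell against 8118 to 10340. Reads of Y-linked genes stood at 404 to 424 CPM against 4.25 to 4.96 CPM, and *Xist* at 35.4 to 51.8 CPM against 1377 to 1570 CPM. By these genes S04, S05 and S07 were male and the other 6 mice female. S07 entered the RPE comparison with 11 cells, 6 of which had *Xist* and no Y-linked UMI, and the labels give S06 and S07 the same animal number. Some results that rest on S07 are therefore also given without it, and others as a range with each mouse left out in turn.

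*Trpm3* was highest in RPE, at 17797 ± 3724 CPM (SD, n = 7 mice), followed by Müller glia at 6564 ± 337 CPM (n = 9). *Trpm1* was highest in rod bipolar cells at 8210 ± 688 CPM (n = 9), then ON cone bipolar cells at 2775 ± 224 CPM and OFF cone bipolar cells at 1204 ± 142 CPM (n = 8). In RPE *Trpm1* stood at 209 ± 154 CPM and varied from 49.7 to 487 CPM between mice. Rods were low for both, with *Trpm3* at 151 ± 30.6 CPM and *Trpm1* at 60.6 ± 12.7 CPM (n = 9). RPE and Müller glia thus served as the *Trpm3*-high types, rod and ON cone bipolar cells as the *Trpm1*-high types, and rods as the type low in both.

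Among the transcription factors, *Pax6* was a gene of amacrine cells and Müller glia. It reached 878 ± 114 CPM in GABAergic amacrine cells (SD, n = 9), 768 ± 118 CPM in Müller glia (n = 9), 647 ± 85.4 CPM in glycinergic amacrine cells (n = 7) and 507 ± 72.4 CPM in horizontal cells (n = 7). In RPE it was 30.6 ± 29.7 CPM (n = 7) and in rods 25.4 ± 5.73 CPM (n = 9), which placed both among the low types. GABAergic amacrine cells were above Müller glia in 7 of 9 mice (exact sign-flip permutation test, two-sided p = 0.0273), and Müller glia above glycinergic amacrine cells in 7 of 7 (exact p = 0.0156). These and later exact p-values are unadjusted for the 150 pairs of neighbours compared, whose order came from the same levels.

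*Meis1*, a homeodomain partner of PBX proteins, was broader. Its order ran from horizontal cells (752 ± 109 CPM, n = 7) through rods (550 ± 43.6 CPM, n = 9) and cones (465 ± 32.4 CPM, n = 9) to Müller glia (426 ± 35.4 CPM, n = 9). Each of these steps had an unadjusted p under 0.05 in the exact sign-flip test (p = 0.0156, 0.00781 and 0.00781). Müller glia and starburst amacrine cells, the next in order, did not differ beyond their spread (higher in 5 of 7 mice, exact p = 0.156). RPE stood well below the photoreceptors at 140 ± 54.5 CPM (n = 7), and fibroblast-like cells were lowest at 29.6 CPM.

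*Meis2*, its paralog, had a different order. GABAergic amacrine cells led with 1580 ± 106 CPM (n = 9), and rods at 763 ± 33.5 CPM (n = 9) and cones at 432 ± 25.8 CPM (n = 9) followed, each step holding in 9 of 9 mice (exact p = 0.00391). ON cone bipolar cells (346 ± 81.2 CPM, n = 9) and RPE (312 ± 51.9 CPM, n = 7) were neighbours that did not differ beyond their spread (exact p = 0.734). Müller glia at 64.3 ± 18.8 CPM (n = 9) and horizontal cells, the lowest type, at 17.6 ± 4.89 CPM (n = 7) were at the other end, so the cell type with the most *Meis1* had the least *Meis2*.

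*Mitf*, the regulator of pigment cell genes, was highest in RPE at 674 ± 100 CPM (n = 7). Microglia at 610 ± 132 CPM (n = 4) did not differ from RPE beyond their spread (higher in RPE in 3 of 4 mice, exact p = 0.625), and 4 pairs cannot give an exact p below 0.125. Horizontal cells came next at 350 ± 64.1 CPM (n = 7). Rods (73.6 ± 10.7 CPM) and Müller glia (70.0 ± 11.8 CPM) had close means, and OFF cone bipolar cells were lowest at 10.7 ± 4.32 CPM (n = 8). *Creb5* was highest in microglia (343 ± 386 CPM, n = 4), fibroblast-like cells (249 ± 121 CPM, n = 6) and Müller glia (158 ± 25.9 CPM, n = 9), with neighbours not separated beyond their spread (exact p = 0.375 and 0.219). Müller glia were above pericytes, the next type, in 7 of 7 mice (exact p = 0.0156).

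Among the membrane and traffic genes, *Ezr* was an RPE gene, with 871 ± 173 CPM in RPE (SD, n = 7), 118 ± 53.3 CPM in fibroblast-like cells (n = 6) and 86.5 ± 42.2 CPM in endothelial cells (n = 7). RPE was above fibroblast-like cells in 6 of 6 mice (exact p = 0.0313), and most neuron types were under 10 CPM. *Rab22a*, which directs early endosome traffic, was the most even of the set: type means ran only from 29.1 CPM in starburst amacrine cells to 78.1 CPM in pericytes, with RPE at 54.5 ± 25.1 CPM (n = 7). *Ankrd13a*, a ubiquitin-binding protein of endocytosed receptors, was highest in endothelial cells (144 ± 37.1 CPM, n = 7) and starburst amacrine cells (143 ± 22.1 CPM, n = 7), which did not differ beyond their spread (exact p = 0.844). Its mean of 28.9 ± 47.8 CPM in RPE was set by S07, the median being 10.7 CPM.

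The receptor *Ephb2* was at 212 ± 31.2 CPM in GABAergic amacrine cells and 211 ± 17.1 CPM in Müller glia (n = 9 each), which did not differ beyond their spread (exact p = 0.898), while Müller glia were above ganglion cells in 8 of 8 mice (exact p = 0.00781). RPE (17.6 ± 6.09 CPM) and rods (16.6 ± 3.33 CPM) were low in *Ephb2*. The ligand *Efnb3* was scarce everywhere, with 10.7 ± 3.23 CPM in GABAergic amacrine cells (n = 9) and 8.65 ± 3.98 CPM in OFF cone bipolar cells (n = 8), and it was at 0 in microglia, pericytes and endothelial cells. A count of 0 allows up to 3 UMIs in a mouse, and such limits cover counting error only.

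**Figure D1:**
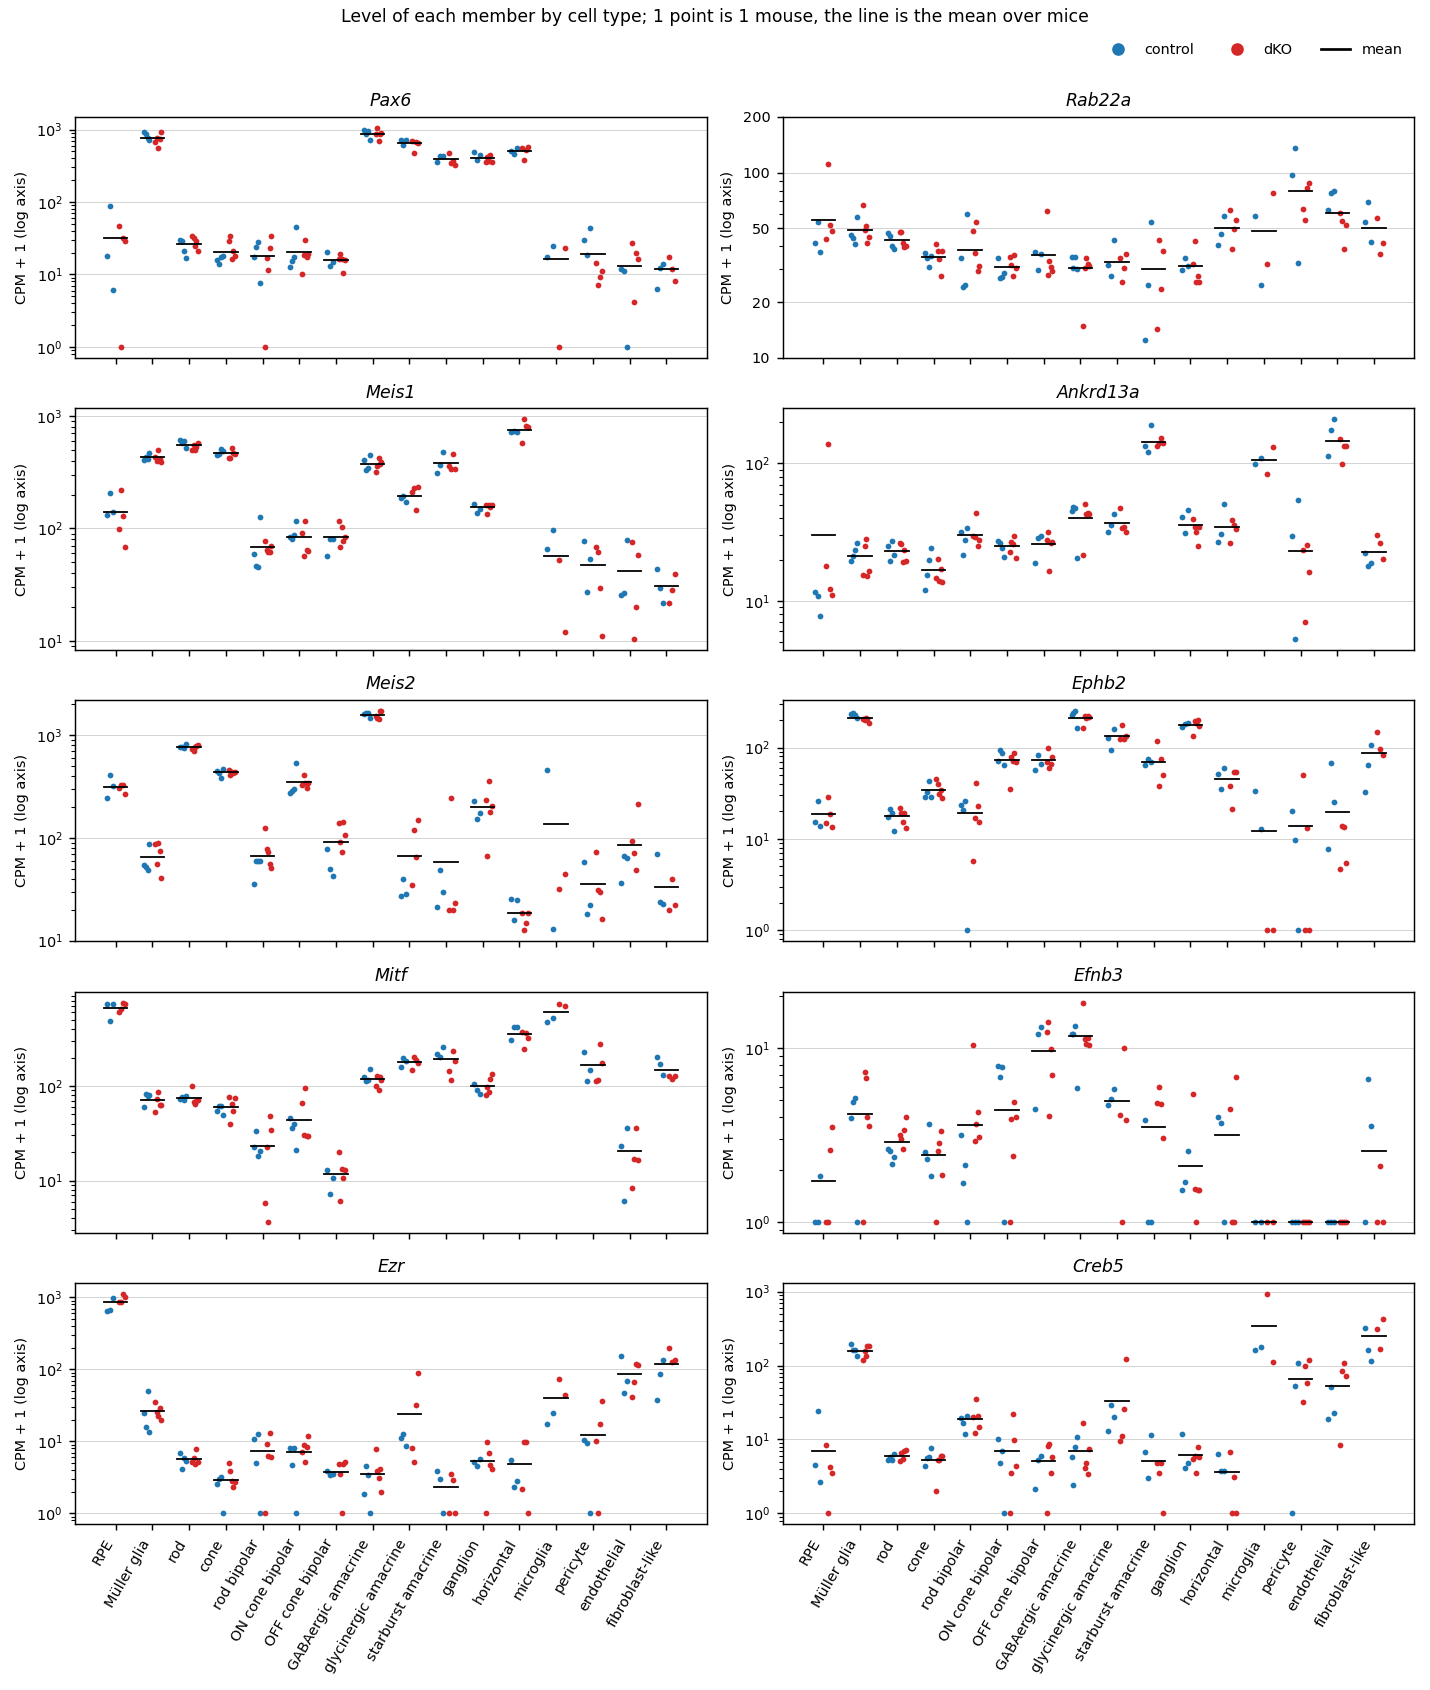
Level of each of the 10 genes in 16 cell types, as CPM plus 1 on a log axis, 1 panel per gene. Each point is 1 mouse with at least 10 cells of the type, coloured by group (control or dKO), and the line is the mean over mice. *Ezr* stands highest in RPE (871 CPM) and *Pax6* in GABAergic amacrine cells (878 CPM) and Müller glia (768 CPM), whereas *Rab22a* stays between means of 29.1 and 78.1 CPM.

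Across the means of the 16 cell types, which come from the same mice and libraries, the set followed neither host gene closely. On log2(CPM + 1), Pearson's r with *Trpm3* was highest for *Ephb2* (r = 0.46, Spearman's rho = 0.62, n = 16 cell types), then *Ezr* (0.42 and 0.24) and *Pax6* (0.33 and 0.40). With *Trpm1* the most negative were *Mitf* (r = -0.53, rho = -0.35) and *Pax6* (-0.46 and -0.53). Within the set, *Pax6* followed *Ephb2* (r = 0.73, rho = 0.69) and *Meis1* (r = 0.69, rho = 0.81), receptor *Ephb2* and ligand *Efnb3* had r = 0.69 (rho = 0.66), and *Rab22a* and *Efnb3* ran opposite to each other (r = -0.65, rho = -0.68). These are descriptions over cell types, which are not independent.

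Of 11780 genes ranked by Pearson's r of log2(CPM + 1) over the 16 types, the most like *Pax6* was *Drp2* (r = 0.961), the most like *Meis2* was *G630016G05Rik* (0.952, with the next gene, *Chrna7*, at 0.771), and the most like *Meis1* was *Tspan7* (0.893). *Mitf* was most like *Sumf1* (0.817), *Ezr* like *Gbp3* (0.892), *Creb5* like *Agmo* (0.931) and *Ephb2* like *Nlgn3* (0.923). The nearest genes to *Rab22a*, *Ankrd13a* and *Efnb3* were *Pdlim5* (0.883), *Cmtm8* (0.863) and *Catsper4* (0.864).

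RPE was compared with rods within mice, as the *Trpm3*-high type against the type low in both hosts (7 mice, mouse as a block). The low-count filter was passed by 9 of the 10 genes, and 5 of these were called at an adjusted p under 0.05 in edgeR's quasi-likelihood test (p-values adjusted over all genes by the method of Benjamini and Hochberg), against 66.9% of the 11415 genes tested. *Ezr* per mouse was 649, 857 and 1104 CPM (lowest, median and highest) in RPE and 3.09, 4.32 and 6.95 CPM in rods, so the 2 types were far apart in every mouse. Its log2 fold change was 7.72 (SE 0.208, edgeR adjusted p = 2.02e-19). *Mitf* was 487, 732 and 762 CPM in RPE and 64.0, 70.6 and 100 CPM in rods, again without overlap, with a log2 fold change of 3.52 (SE 0.174, edgeR adjusted p = 7.84e-15).

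Both MEIS genes were lower in RPE than in rods. *Meis1* was 67.6, 130 and 219 CPM in RPE and 497, 554 and 615 CPM in rods, a log2 fold change of -1.85 (SE 0.175, edgeR adjusted p = 1.66e-09). *Meis2* was 244, 318 and 406 CPM in RPE and 707, 764 and 814 CPM in rods, a log2 fold change of -1.02 (SE 0.160, edgeR adjusted p = 5.29e-06), and both genes were lower in RPE in 7 of 7 mice. *Rab22a* was called higher (log2 fold change 0.45, SE 0.151, edgeR adjusted p = 0.0112), yet its CPM was higher in only 4 of 7 mice, and the call was lost under DESeq2 (adjusted p = 0.240) and without S08 (log2 fold change 0.38). *Pax6* (log2 fold change 0.51), *Creb5* (0.58), *Ephb2* (0.22) and *Ankrd13a* (-0.52) did not pass, and *Efnb3* was below the filter. Without S07 *Ankrd13a* stood at a log2 fold change of -0.76 and passed (edgeR adjusted p = 0.00401), and *Pax6* passed without S01 (0.67) or S03 (0.74).

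Müller glia were compared with rods in 9 mice, and 8 of the 10 genes were called, against 77.6% of 13227 genes. *Creb5* was 118, 159 and 195 CPM (lowest, median and highest of 9 mice) in Müller glia and 4.18, 4.77 and 6.21 CPM in rods, a log2 fold change of 5.07 (SE 0.0998, edgeR adjusted p = 3.33e-17). *Pax6* was 563, 758 and 923 CPM in Müller glia and 15.7, 28.2 and 32.5 CPM in rods, a log2 fold change of 5.01 (SE 0.127, edgeR adjusted p = 7.06e-16). For both genes every Müller value was above every rod value. *Ephb2* was 184, 207 and 236 CPM in Müller glia and 11.3, 18.1 and 20.5 CPM in rods (log2 fold change 3.78, SE 0.0822, edgeR adjusted p = 1.07e-16), and *Ezr* was higher at a lower level (log2 fold change 2.49, SE 0.156, 25.3 against 4.68 CPM on average).

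*Meis2* moved the other way, at 40.1, 54.4 and 88.0 CPM in Müller glia and 707, 764 and 814 CPM in rods, a log2 fold change of -3.58 (SE 0.105, edgeR adjusted p = 4.85e-15). *Meis1* was only slightly lower in Müller glia (log2 fold change -0.29, SE 0.0609, lower in 8 of 9 mice). *Efnb3* was called higher (log2 fold change 1.09, SE 0.282, higher in 6 of 9 mice) at 3.18 against 1.88 CPM. *Rab22a* was called higher by 0.23 on the log2 scale (SE 0.0678) and lost the call in several alternatives, among them DESeq2, control mice alone and the fit without S05 (0.15), while *Mitf* (0.07) and *Ankrd13a* (-0.04) did not pass.

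RPE and Müller glia, both *Trpm3*-high, differed widely from each other in the set. Of 9 genes tested, 7 were called, against 61.7% of 9818 genes, and all 7 had the same direction in 7 of 7 mice. RPE was higher in *Ezr* (log2 fold change 5.30, SE 0.194), *Mitf* (3.43, SE 0.191) and *Meis2* (2.68, SE 0.167), with edgeR adjusted p of 2.62e-12, 2.52e-10 and 9.34e-10. Müller glia were higher in *Pax6* (log2 fold change -4.54, SE 0.342), *Creb5* (-4.51, SE 0.333), *Ephb2* (-3.51, SE 0.158) and *Meis1* (-1.48, SE 0.165), with edgeR adjusted p of 9.35e-09, 7.46e-09, 2.29e-11 and 9.54e-07. *Rab22a* (0.30, edgeR adjusted p = 0.0695) and *Ankrd13a* (-0.41, edgeR adjusted p = 0.186) did not pass with all mice. Without S07, *Ankrd13a* passed with a log2 fold change of -0.59 (edgeR adjusted p = 0.0296). Of the genes with a seed site, *Ezr* and *Meis2* were higher in RPE and *Creb5* and *Meis1* lower, and of those without one *Mitf* was higher and *Pax6* and *Ephb2* lower, and no relation to the sites was tested.

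The bipolar cells differ in both host genes within 1 class of retinal interneuron. Rod bipolar cells had 7.17 times the *Trpm1* of OFF cone bipolar cells but less *Trpm3* (123 against 1405 CPM), so the hosts cannot be told apart here. They were compared in 8 mice, and 5 of 8 genes tested were called, against 47.5% of 9829 genes. *Creb5* was higher in rod bipolar cells in 8 of 8 mice (18.0 against 4.10 CPM, log2 fold change 1.90, SE 0.294, edgeR adjusted p = 3.01e-05). *Mitf* was higher in 6 of 8 mice (22.7 against 10.7 CPM, log2 fold change 1.52, SE 0.270, edgeR adjusted p = 1.42e-04). *Ephb2* was lower in all 8 (20.5 against 71.3 CPM, log2 fold change -1.75, SE 0.179, edgeR adjusted p = 1.98e-07). The calls of *Pax6* (0.57, edgeR adjusted p = 0.0461, higher in 4 of 8 mice) and *Meis1* (-0.33, edgeR adjusted p = 0.0191) were lost in control mice alone. The call of *Pax6* was also lost without S02, S03, S08 or S09 (0.48 to 0.51) and that of *Meis1* without S02, S03 or S07 (-0.27 to -0.25). *Meis2* did not pass (-0.40, edgeR adjusted p = 0.0907), and with a stricter marker gate its direction turned (0.57, edgeR adjusted p = 0.0250), while it passed as lower without S02 (-0.51) or S03 (-0.55).

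ON cone bipolar cells had 2.28 times the *Trpm1* of OFF cone bipolar cells and, like rod bipolar cells, less *Trpm3* (140 against 1405 CPM, log2 fold change -3.34), and 3 of 8 genes tested were called in 8 mice, against 28.9% of 10075 genes. *Meis2* was 322 against 89.2 CPM on average (log2 fold change 1.97, SE 0.145, edgeR adjusted p = 2.37e-09), and *Mitf* was 45.4 against 10.7 CPM (log2 fold change 2.03, SE 0.163, edgeR adjusted p = 8.37e-09). Both were higher in ON cells in 8 of 8 mice. *Efnb3* was lower in ON cells (3.83 against 8.65 CPM, log2 fold change -0.94, SE 0.300, edgeR adjusted p = 0.0237), a call that was lost under DESeq2, in control mice alone and without S02 (-0.95), S03 (-0.96) or S06 (-0.69). *Pax6*, *Meis1*, *Rab22a*, *Ankrd13a* and *Ephb2* had log2 fold changes from -0.09 to 0.14 and did not pass.

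Rod bipolar cells were also set against rods in 9 mice, a contrast of high and low *Trpm1* between 2 neuron types. Of 9 genes tested 7 were called, against 67.5% of 11945 genes. *Meis2* (65.0 against 763 CPM, log2 fold change -3.39, SE 0.127), *Meis1* (67.0 against 550 CPM, -2.92, SE 0.104) and *Mitf* (22.4 against 73.6 CPM, -1.17, SE 0.179) were lower in rod bipolar cells in 9 of 9 mice. *Creb5* (18.2 against 5.00 CPM, 2.00, SE 0.191) and *Ankrd13a* (28.9 against 22.1 CPM, 0.61, SE 0.123) were higher in 9 of 9, and *Ezr* was higher in 7 of 9 (0.99, SE 0.223). *Ephb2* (0.54, SE 0.178) was higher in 5 of 9 mice, and that call was lost under DESeq2.

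**Figure D2:**
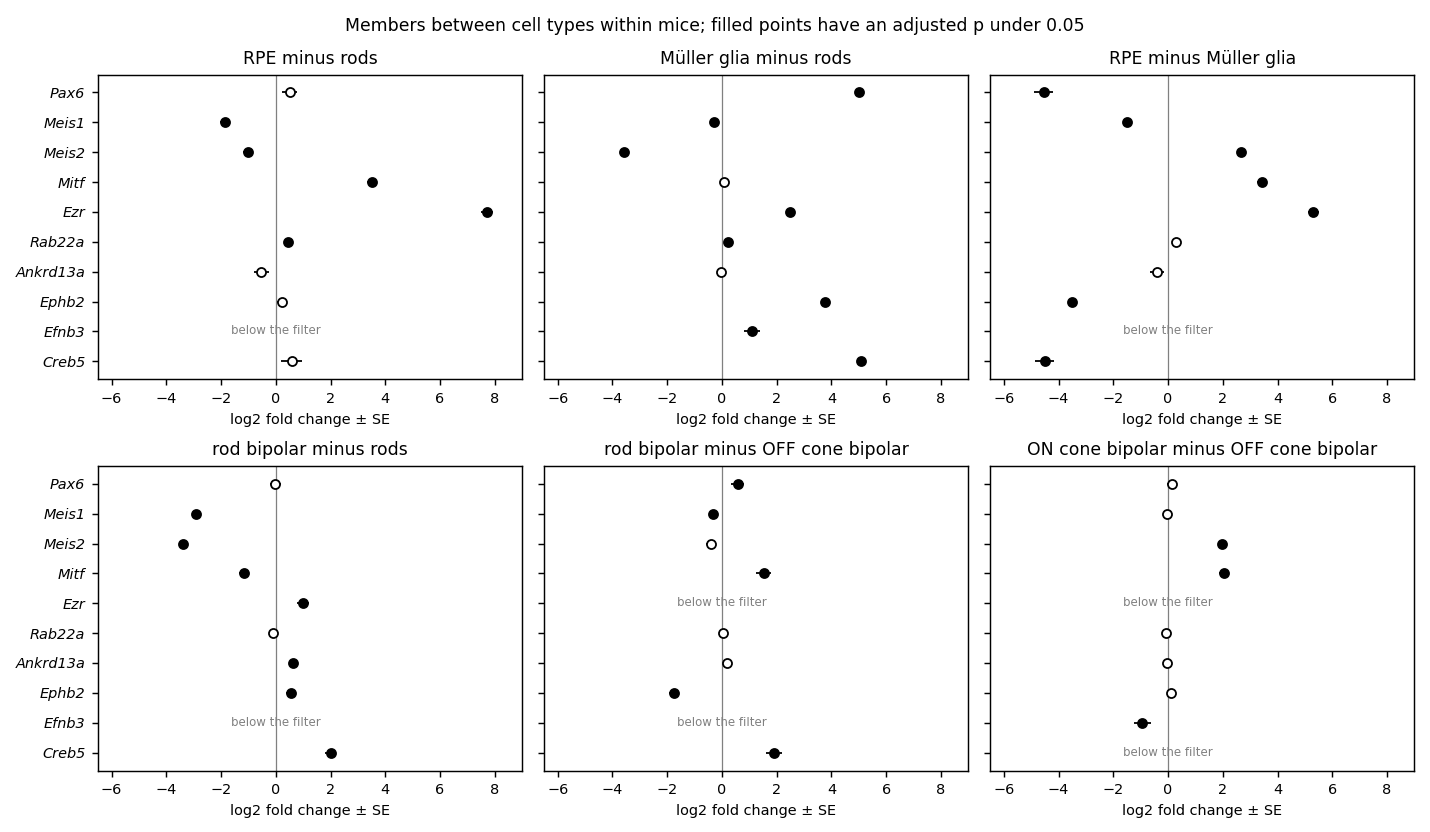
Log2 fold change ± SE of each of the 10 genes in 6 comparisons of cell types within mice, 1 panel per comparison; filled points have an adjusted p under 0.05 and genes below the filter are marked. *Ezr* is the farthest right in RPE against rods (7.72), *Meis2* the farthest left in Müller glia against rods (-3.58), and *Mitf* lies right of 0 in RPE against rods (3.52), RPE against Müller glia (3.43) and ON against OFF cone bipolar cells (2.03).

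For the wider pathways, 63 genes in 6 lists of relatives were followed in the same fits. In RPE against rods 26 of 45 tested were higher and 7 lower, where 32.3% of all genes were higher and 34.6% lower. In Müller glia against rods 38 of 55 were higher and 13 lower (39.4% and 38.1% of all genes), and in RPE against Müller glia 11 of 52 were higher and 25 lower (29% and 32.7%). The median log2 fold change of the lists was 0.66, 1.69 and -0.14, against -0.09, -0.01 and -0.05 over all genes tested. Between the bipolar types, 9 of 45 were higher and 13 lower in rod against OFF cone bipolar cells (21.1% and 26.5% of all genes), and 10 of 48 each way in ON against OFF cone bipolar cells (14.9% and 13.9%). Rod bipolar cells were higher than rods in 24 of 46 and lower in 8 (35.1% and 32.4%).

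Of the Eph receptors and ephrins, relatives of *Ephb2* and *Efnb3*, 15 were tested in Müller glia against rods, and 10 were higher and 2 lower (39.4% and 38.1% of all genes). Of 12 tested in RPE against Müller glia, 8 were lower and 1 higher (32.7% and 29% of all genes). In the second comparison *Ephb1* (log2 fold change -5.99, SE 0.274) and *Epha5* (-5.70, SE 0.212), both receptors, were lower in RPE together with *Ephb2*, and *Epha7* (2.45, SE 0.199) was higher. The EPHB2 ligand genes *Efnb1* (-2.27, SE 0.328) and *Efnb2* (-2.32, SE 0.353) were also lower in RPE than in Müller glia.

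Of 15 eye transcription factors and MEIS or MITF relatives tested in RPE against Müller glia, 2 were higher and 8 lower (29% and 32.7% of all genes). *Otx2*, a regulator of RPE and photoreceptor identity that works with MITF, was higher in RPE (log2 fold change 5.55, SE 0.186), as was the MEIS partner *Pbx3* (2.06, SE 0.171). *Six6* (-6.42, SE 0.381), a gene of the neural retina, was lower in RPE, like *Pax6*. Among 6 ezrin relatives and partners tested was *Slc9a3r1*, which encodes the scaffold protein EBP50 that binds ezrin. Like *Ezr*, it was higher in RPE than in Müller glia (1.86, SE 0.219) and than in rods (5.26, SE 0.239). The ezrin paralog *Msn* was higher in RPE than in rods (4.33, SE 0.214). Of all genes, 29% were higher in RPE than in Müller glia and 32.3% higher than in rods. *Slc9a3r1* and *Msn* are single genes of their list, and no pattern of that list was tested.

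In the RAB5 family and endosome list, to which *Rab22a* belongs, all 8 genes were tested in RPE against rods, and 5 were higher and 2 lower (32.3% and 34.6% of all genes). *Rab31*, the closest RAB22A relative on the list, was higher by a log2 fold change of 3.12 (SE 0.243) and *Rab5c* by 1.62 (SE 0.174), and *Rabgef1* was lower (-1.74, SE 0.146). Of 8 CREB and ATF relatives tested in Müller glia against rods, 5 were higher and 2 lower (39.4% and 38.1% of all genes), among them *Creb3l2* (4.88, SE 0.0738), higher like *Creb5*, and *Creb1* (-0.85, SE 0.0651) and *Atf2* (-0.37, SE 0.0578), both lower. Of 3 genes of the *Ankrd13a* family, *Ankrd13d* (3.06, SE 0.187) and *Ankrd13b* (1.10, SE 0.153) were higher in Müller glia than in rods and *Ankrd13c* (-0.44, SE 0.0806) lower.

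The comparison of dKO with control mice asks whether RPE deletion of both miRs changed these genes, and RPE is the cell type of the driver. None of the 8 genes tested in RPE was called, and no gene of the 8896 tested was called either (0%, edgeR). At an unadjusted p under 0.05 there was 1 of 8, against 6.49% of all genes, and in none of the 8 did the groups not overlap, against 6.65% of all genes. The SE of the log2 fold changes ran from 0.217 for *Meis2* to 0.601 for *Pax6*, and the values below are read against it.

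*Ezr* in RPE was 649, 657 and 969 CPM in control mice S01, S02 and S03, and 857, 850, 1104 and 1014 CPM in dKO mice S06, S07, S08 and S09. S08 and S09 were above every control, and S06 and S07 lay between the controls. The log2 fold change was 0.29 (SE 0.248, edgeR adjusted p = 0.978), and 0.16 to 0.51 with each mouse left out in turn.

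*Rab22a* was 40.5, 53.2 and 36.3 CPM in controls and 42.6, 110, 51.3 and 47.5 CPM in dKO mice, where the value of S07 rested on 4 UMIs. The other 3 dKO mice lay within the controls, and the log2 fold change was 0.19 (SE 0.271), or 0.13 without S07. *Ankrd13a* was 10.7, 9.90 and 6.76 CPM in controls and 16.9, 137, 11.2 and 10.01 CPM in dKO mice, with 5 UMIs behind the 137 CPM of S07. Of the dKO mice, 3 were above every control and S09 was not, with a log2 fold change of 0.81 (SE 0.542, edgeR adjusted p = 0.963). With each mouse left out in turn it ranged from 0.53 (without S07) to 1.04.

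*Meis1* was 130, 204 and 138 CPM in controls and 96.9, 219, 127 and 67.6 CPM in dKO mice. S06, S08 and S09 were below every control and S07, with 8 UMIs, was above them all. The log2 fold change was -0.58 (SE 0.259, unadjusted p = 0.0400, edgeR adjusted p = 0.710), which makes it the 1 gene at an unadjusted p under 0.05. The change ran from -0.76 to -0.39 with each mouse left out in turn, and was -0.65 without S07. Its unadjusted edgeR p was 0.175 without S02 and 0.131 without S09. With a stricter marker gate the change was -0.16. *Meis2* was 244, 406 and 318 CPM in controls and 302, 329, 324 and 265 CPM in dKO mice, all of them inside the range of the controls (log2 fold change -0.14, SE 0.217).

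*Mitf*, highest in RPE of all the types, was 732, 487 and 737 CPM in controls and 599, 658, 762 and 741 CPM in dKO mice. S08 and S09 were slightly above the controls and the log2 fold change was 0.02 (SE 0.239). *Pax6* was 17.1, 87.8 and 5.07 CPM in controls and 45.5, 0, 31.3 and 27.5 CPM in dKO mice. Single cells carried much of it: 46 of the 71 UMIs of S02 and 33 of the 62 UMIs of S06 were in 1 cell each. Its log2 fold change was 0.011 (SE 0.601), with no stable direction: it was 1.55 without S02, -0.54 without S03, -0.36 without S01, -0.25 without S06 and -0.23 with DESeq2.

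*Ephb2* in RPE was 14.2, 24.7 and 12.7 CPM in controls and 13.9, 27.4, 17.6 and 12.5 CPM in dKO mice. The groups overlapped, with a log2 fold change of -0.13 (SE 0.367). The 27.4 CPM of S07 was 1 UMI, and 13 of the 20 *Ephb2* UMIs of S02 were in 1 cell. *Creb5*, below the filter in RPE, was 3.56, 23.5 and 1.69 CPM in controls and 7.34, 0, 3.21 and 2.50 CPM in dKO mice, 16 of the 19 UMIs of S02 being in 1 cell. *Efnb3* had 1 UMI in all controls together and 3 UMIs in the dKO mice, too few to compare. Of the genes with a seed site, *Ezr*, *Rab22a* and *Ankrd13a* had log2 fold changes above 0 and *Meis1* below 0 with any 1 mouse left out, and none of them passed the test. The signs of *Meis2*, *Pax6*, *Mitf* and *Ephb2* turned with 1 mouse left out.

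**Figure D3:**
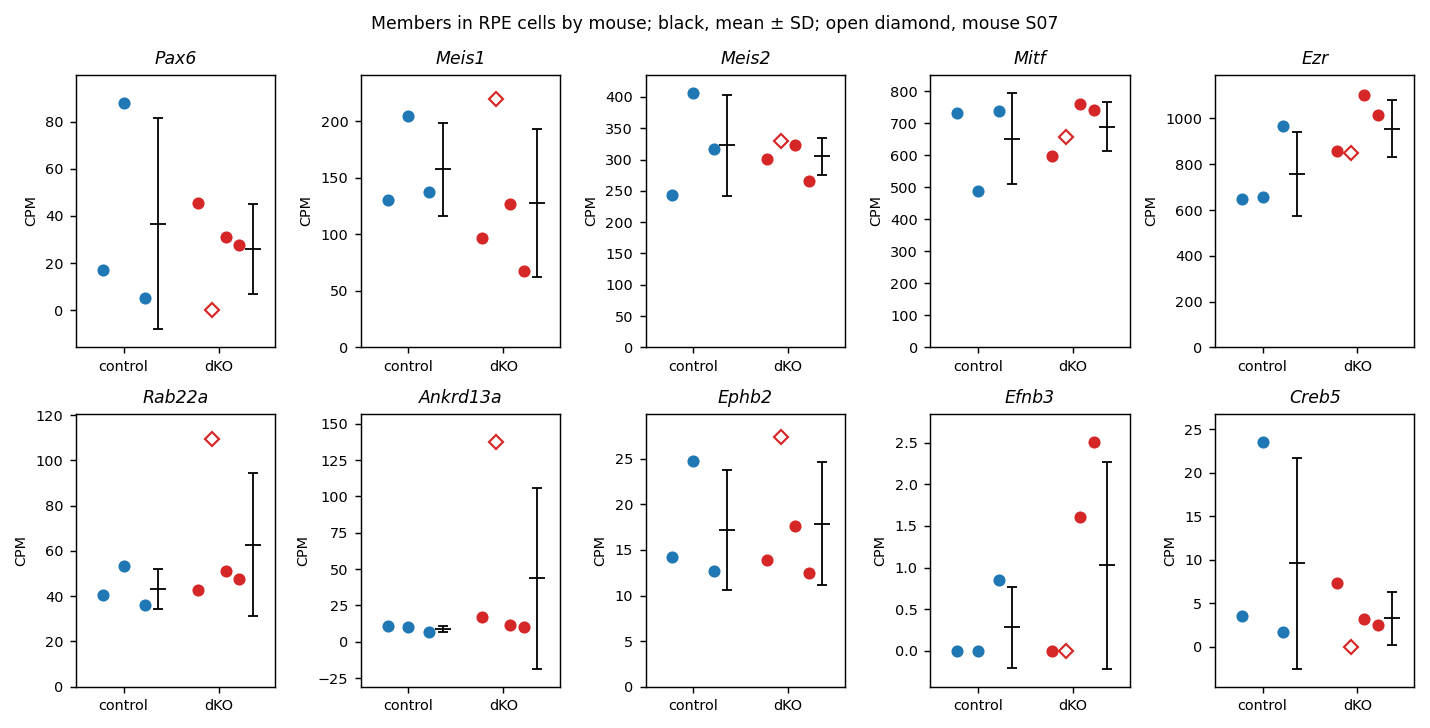
CPM of each of the 10 genes in RPE cells of 3 control and 4 dKO mice, 1 panel per gene with its own linear axis. Each point is 1 mouse, the open diamond is S07, and the black bar beside each group is its mean ± SD. S07, with 11 RPE cells, is the highest dKO mouse for *Rab22a* (110 CPM), *Ankrd13a* (137 CPM) and *Meis1* (219 CPM), and dKO and control points overlap in every panel.

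The host genes were measured in the same RPE cells. *Trpm3* was 17456, 18310 and 17722 CPM in controls and 19181, 12256, 24408 and 15244 CPM in dKO mice, with S06 and S08 above and S07 and S09 below every control (log2 fold change -0.06, SE 0.335). *Trpm1* was 59.7, 487 and 213 CPM in controls and 319, 192, 49.7 and 143 CPM in dKO mice, with overlapping groups (log2 fold change -0.56, SE 0.568).

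In Müller glia, which hold *Trpm3* but not the driver, none of the 10 genes was called, like none of 12890 genes (0%, edgeR). For controls S01 to S04, *Ephb2* stood at 232, 236, 229 and 208 CPM, and for dKO mice S05 to S09 at 204, 199, 207, 204 and 184 CPM. Every dKO mouse was below every control, by a margin of about 1 CPM between S07 and S04. The log2 fold change was -0.20 (SE 0.0878, unadjusted p = 0.0373, edgeR adjusted p = 1.0). It ran from -0.24 to -0.18 with each mouse left out in turn, and was -0.25 without S04, S05 and S07. It was 1 of 10 genes whose groups did not overlap, against 0.908% of all genes, and 1 of 10 at an unadjusted p under 0.05, against 2.08%. The other 9 had log2 fold changes from -0.20 to 0.23.

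**Figure D4:**
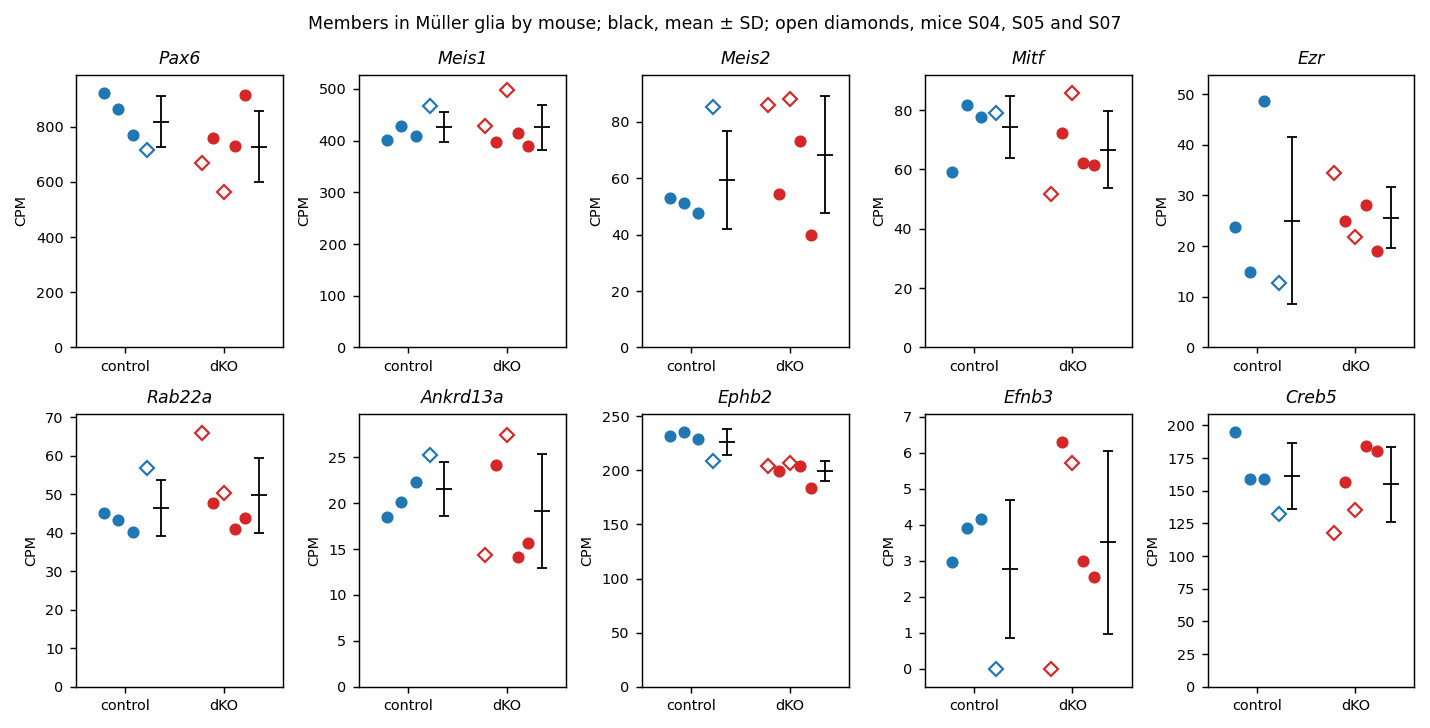
CPM of each of the 10 genes in Müller glia of 4 control and 5 dKO mice, 1 panel per gene with its own linear axis. Each point is 1 mouse, open diamonds are S04, S05 and S07, and the black bar beside each group is its mean ± SD. All 5 dKO mice are below the 4 controls for *Ephb2*, the lowest control being S04 at 208 CPM and the highest dKO mouse S07 at 207 CPM, and the groups overlap in the other 9 panels.

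The difference between the dKO change in RPE and that in Müller glia was tested as an interaction. None of 9 genes was called, like none of 11180 genes (0%, edgeR), and at an unadjusted p under 0.05 there was none among the 9 against 5.83% of all genes. The interaction was -0.58 for *Meis1* (SE 0.278, edgeR adjusted p = 0.867), 0.93 for *Ankrd13a* (SE 0.510) and 0.47 for *Ezr* (SE 0.300) on the log2 scale. With each mouse left out in turn it ran from -0.75 to -0.42, from 0.64 to 1.19 and from 0.12 to 0.72 for these genes.

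Over the 15 cell types with enough mice, 119 of 150 pairs of gene and cell type passed the filter and none was called. At an unadjusted p under 0.05 there were 6, or 5.04%, against 3.09% of all 141567 pairs of gene and cell type, and 3 pairs, or 2.52%, had groups that did not overlap, against 2.9%. Those 3 were *Ephb2* in Müller glia, *Rab22a* in endothelial cells (62.1, 76.3 and 78.3 CPM in controls, 59.5, 53.8, 37.7 and 50.8 CPM in dKO mice, log2 fold change -0.51, SE 0.281, 4.72% of all genes not overlapping) and *Mitf* in fibroblast-like cells (202, 171 and 131 CPM in controls, 127, 116 and 126 CPM in dKO mice, -0.41, SE 0.241, 9.36% not overlapping). In rods none of the 10 was at an unadjusted p under 0.05, against 2.89% of all genes, and their log2 fold changes ran from -0.14 to 0.55.

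The lowest unadjusted p among the 119 pairs was that of *Meis2* in OFF cone bipolar cells. It was 76.9, 48.7 and 41.5 CPM in control mice S01 to S03 and 137, 90.2, 72.4, 140 and 106 CPM in dKO mice S05 to S09. Of the dKO mice, 4 were above every control and S07 was not, with a log2 fold change of 0.95 (SE 0.223, unadjusted p = 6.29e-04, edgeR adjusted p = 1.0), and from 0.77 to 1.23 with each mouse left out in turn. It was 1 of 8 genes tested in these cells at an unadjusted p under 0.05, against 3.12% of all genes. In each of these mice the 4 cells with the most *Meis2* held 52.4 to 75.0% of its UMIs, and the identity of those cells was not tested.

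*Meis2* was also higher on average in glycinergic amacrine cells, at 25.9, 38.4 and 27.6 CPM in controls S01 to S03 and 33.6, 119, 64.7 and 147 CPM in dKO mice S06 to S09 (log2 fold change 1.53, SE 0.454, unadjusted p = 0.00666, edgeR adjusted p = 1.0). *Ezr* there was 10.05, 11.7 and 7.60 CPM in controls and 7.18, 4.12, 31.0 and 89.1 CPM in dKO mice (1.84, SE 0.796, unadjusted p = 0.0426, edgeR adjusted p = 1.0), and these 2 of 9 genes tested at an unadjusted p under 0.05 compare with 3.6% of all genes. In S09 the 4 highest cells held 201 of 257 *Meis2* UMIs, 120 of 156 *Ezr* UMIs and 184 of 213 *Creb5* UMIs. Without S09 the log2 fold change was 1.10 for *Meis2* and 0.63 for *Ezr*. Without the filter on low counts *Meis2*, *Ezr* and *Creb5* were called in glycinergic amacrine cells and *Meis2* in OFF cone bipolar cells.

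*Pax6* in cones was 14.9, 12.9, 16.6 and 16.7 CPM in controls and 27.6, 32.7, 15.4, 20.1 and 17.1 CPM in dKO mice, with 4 of 5 dKO mice above every control (log2 fold change 0.56, SE 0.223, unadjusted p = 0.0234, edgeR adjusted p = 1.0). It was 1 of 8 genes tested in cones at an unadjusted p under 0.05, against 3.55% of all genes, and ranged from 0.34 (without S06) to 0.66 with each mouse left out in turn. None of the 63 relatives was called in any dKO comparison, where 0% of all genes were called.

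**Figure D5:**
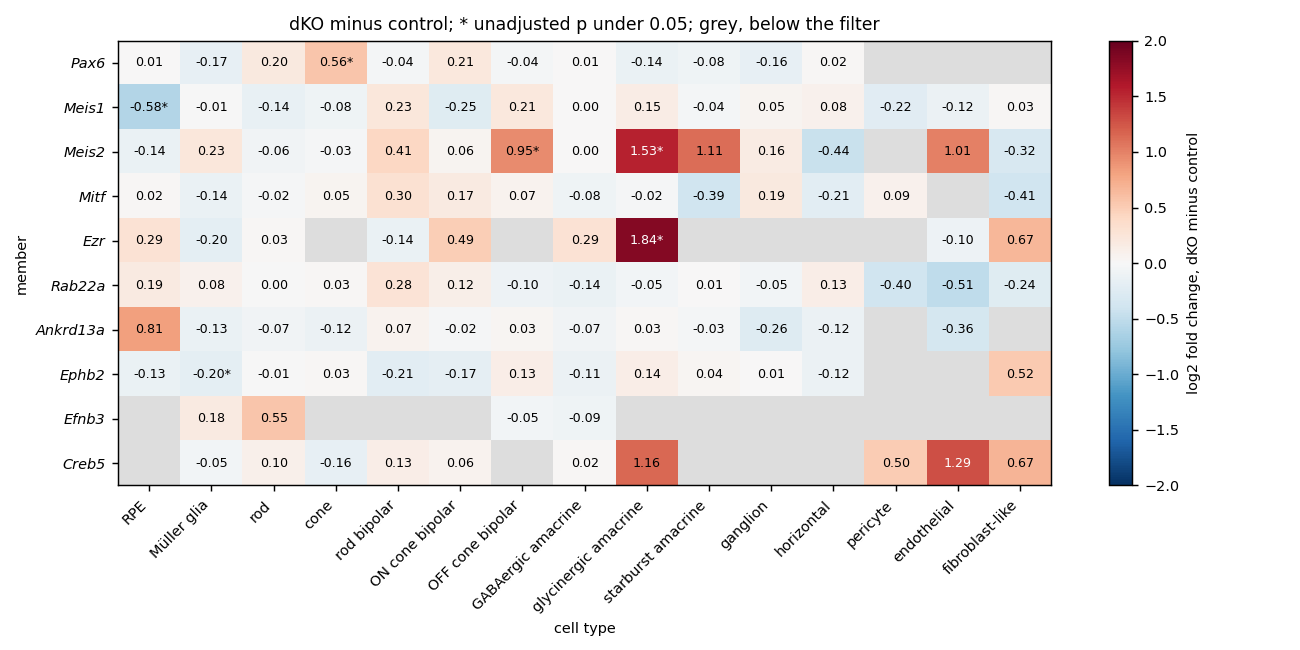
Log2 fold change of dKO against control mice for each of the 10 genes (vertical) in 15 cell types (horizontal), as a colour scale with the value written in; asterisks mark an unadjusted p under 0.05 and grey marks pairs below the filter. The asterisks stand at 6 pairs, among them *Meis1* in RPE (-0.58), *Ephb2* in Müller glia (-0.20) and *Meis2* in OFF cone bipolar (0.95) and glycinergic amacrine cells (1.53), and no pair passed the adjusted threshold.

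Several genes differed between S04, S05 and S07, the mice that stood apart, and the other 6, which is given without a test because those mice were singled out from the data. In Müller glia *Pax6* was 563 to 716 CPM in the 3 mice and 731 to 923 CPM in the others, *Creb5* 118 to 135 against 157 to 195 CPM, *Meis2* 85.2 to 88.0 against 40.1 to 73.4 CPM and *Rab22a* 50.3 to 66.0 against 40.2 to 47.8 CPM. These 4 of 10 genes compare with 11.6% of all genes at 1 CPM or more that were separated in this way. In rods *Meis1* was 497 to 512 CPM in the 3 mice and 532 to 615 CPM in the others, where 13.6% of all genes were separated. In cones none of the 10 was separated, against 7.16% of all genes, and in GABAergic amacrine cells 1 was (*Ephb2*, against 9.88%). In rod bipolar cells 2 were (*Pax6* and *Rab22a*, against 11.2%), and in ON cone bipolar cells 2 (*Meis1* and *Efnb3*, against 9.7%). *Efnb3* there had 0, 0 and 1 UMI in S04, S05 and S07, where 3 UMIs would be 11.9, 9.24 and 4.18 CPM. The others had 2.89 to 6.87 CPM, so low depth cannot be told apart from a lower level. In rod bipolar cells *Rab22a* rested on 9, 10 and 20 UMIs in these mice, and *Pax6* on 0 to 10.7 CPM. The 3 mice also had the highest rod shares and the lowest UMIs per cell, and by Y-linked genes and *Xist* they were the male mice. Sex, rod share and UMIs per cell cannot be told apart in this split, and the part of each in these values was not tested.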

How the data were processed

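Single-cell RNA-sequencing (split-pool barcoding of polyadenylated RNA) of retinas from 4 control and 5 dKO mice was used. The values deposited by the authors are raw UMI counts per gene and cell in 1 matrix of 37725 genes and 31089 cells. By the methods, the authors mapped reads with split-pipe to GRCm39, filtered out cells and genes with little data, and worked in Seurat 4.3.0 under R 4.2.2 (also in the submitters' processing notes). Those later steps do not touch the counts. The cells' listed totals equalled the matrix sums, and 0 columns of other series were present. The deposited cluster column holds no cell types, so cells were assigned here by the number of fixed marker genes with at least 1 UMI (3 to 6 genes of a list, with limits on rod marker share). The thresholds were chosen after marker UMIs were seen. Cells passing more than 1 gate (990) were left unassigned, which is the only treatment of doublets. Groups and mouse numbers came from the labels. In the tests of dKO against control mice within a cell type, p-values measure the spread between mice. Between cell types and in the interaction, they measure how the difference within a mouse varies over mice.

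Raw counts were summed per mouse and type (at least 10 cells) and tested with edgeR 4.0.16 (limma 3.58.1, R 4.3.3): TMM scaling, filterByExpr, glmQLFit and glmQLFTest, Benjamini-Hochberg adjustment over all genes, threshold 0.05. Comparisons of cell types had the mouse as a block, and no covariate was used between groups. The group tests were first tested on simulated counts. Alternatives were DESeq2 1.42.0, scaling by library size, no filter, a stricter gate, no block and control mice alone. Others were mice left out, S06 and S07 summed, no minimum of cells and thinned cells. Neighbours in the order of levels were compared by exact sign-flip tests on log2(CPM + 1), with 31 of 150 pairs at an unadjusted p under 0.05. Seed sites were read from GENCODE M39 on GRCm39 and mature miRs from RefSeq. The genes, marker lists, relatives and tests were chosen with earlier results of these data known, and the genes named are the 10 of the set, both hosts, relatives past the test, and for each of the 10 the genes most like it over cell types with a mean of at least 20 CPM in 1 type.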

Additional observations from a re-analysis of the deposited data

Results flagged for a closer look

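Within each group of 4 or 5 mice, the highest and lowest CPM of each of the 10 genes in RPE, Müller glia and rods were compared with the nearest other mouse by Dixon's test. Of 50 groups tested, 5 held a value far from the others, where chance gives about 1 in 20. In RPE of dKO mice, S07 stood far above the other 3 for *Ankrd13a* (137.091 CPM against 16.9 CPM in the nearest mouse) and for *Rab22a* (109.673 CPM against 51.3 CPM). These values rest on 11 cells. In control mice, S04 was the highest for *Meis2* in Müller glia (85.191 CPM against 52.9 CPM in the nearest mouse) and in rods (814.102 CPM against 764 CPM). In dKO mice, S05 was the highest for *Mitf* in rods (100.12 CPM against 70.6 CPM).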

How the results depend on the processing

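No paired analysis was possible because no label ties a control mouse to a dKO mouse; the mouse was the block only between cell types. With no replicate block, *Pax6* in rod bipolar cells against rods turned from -0.017 to 0.046 on the log2 scale, and no called gene changed direction. No gene of the set was called between dKO and control mice under any alternative but the missing filter on low counts, which called 3 in glycinergic amacrine and 1 in OFF cone bipolar cells. Over all genes that setting called 265 in RPE, 44 in Müller glia, 1 in rods, 165 in the interaction, 88 in cones, 45 in rod, 25 in ON cone and 55 in OFF cone bipolar cells, 13 in GABAergic, 315 in glycinergic and 43 in starburst amacrine cells, 103 in ganglion, 34 in horizontal, 20 in pericyte, 146 in endothelial and 21 in fibroblast-like cells, against 0 in each with the filter. DESeq2 called 12 genes in RPE and 1 each in rods, glycinergic amacrine, ganglion and endothelial cells, scaling by library size called 2 in RPE and no minimum of cells 13 in RPE. Without S04, S05 and S07, 2 were called in cones and 1 each in Müller glia, the interaction, ON cone bipolar and starburst amacrine cells. The stricter gate called 15 in pericytes and 1 each in the interaction and horizontal cells, and could not be run for glycinergic and starburst amacrine cells. With 1 mouse left out, the count ran from 0 to 38 in RPE (38 without S06, 16 without S08), 0 to 25 in the interaction (25 without S06), 0 to 1 in Müller glia, rods, rod bipolar, starburst and horizontal cells, 0 to 2 in cones and 0 to 5 in fibroblast-like cells. The cause of these changes was not tested.

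Between cell types, the genes of the set called in rod against OFF cone bipolar cells were 5, but 8 with no filter and 3 in control mice alone. *Meis2* in GABAergic amacrine cells was 1446 CPM with each cell thinned to 2000 UMIs, against 1580 CPM. Directions that turned belonged to genes that had not passed the test. In RPE of dKO mice they were *Pax6* (-0.23 with DESeq2, -0.0040 with no filter, -0.40 without RPE cells high in rod markers, -0.028 with no minimum of cells), *Mitf* (-0.035 with no filter, -0.17 with no minimum of cells) and *Ephb2* (0.43 with a stricter gate). In RPE against rods they were *Pax6* (-0.13, stricter gate) and *Ephb2* (-0.0093 with DESeq2, -0.11 by library size, -0.14 with no filter, -0.080 with the stricter gate). In Müller glia against rods they were *Mitf* (-0.036 with DESeq2, -0.031 by library size, -0.065 with no filter) and *Ankrd13a* (0.019, stricter gate). In rod against OFF cone bipolar cells they were *Meis2* (0.57, stricter gate) and *Rab22a* (-0.040 by library size, -0.23 in control mice alone, -0.00030 with the stricter gate). In ON against OFF cone bipolar cells they were *Pax6* (-0.084 in control mice alone, -0.19 with the stricter gate), *Meis1* (0.22) and *Ankrd13a* (0.035, both in control mice alone). In rod bipolar cells against rods *Pax6* also turned (0.074 in control mice alone, 0.0087 without S04, S05 and S07). With 1 mouse left out, values that crossed 0 were, in RPE of dKO mice, *Pax6* (-0.54 to 1.55), *Meis2* (-0.30 to 0.021), *Mitf* (-0.18 to 0.12) and *Ephb2* (-0.30 to 0.14); in the interaction, *Pax6* (-0.16 to 1.72), *Mitf* (-0.21 to 0.35), *Ephb2* (-0.084 to 0.35) and *Creb5* (-1.49 to 0.85); in RPE against rods, *Creb5* (-0.085 to 0.77); in Müller glia against rods, *Ankrd13a* (-0.10 to 0.027); in rod against OFF cone bipolar cells, *Rab22a* (-0.049 to 0.14); in ON against OFF cone bipolar cells, *Meis1* (-0.12 to 0.025) and *Ankrd13a* (-0.13 to 0.026); and in rod bipolar cells against rods, *Pax6* (-0.20 to 0.068).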
